A study of Mus musculus with 9 samples.

Results

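The mitochondrial carriers of the Slc25a family were followed in the mouse heart from shortly before birth to the first week of life. Members were all genes of the deposited table whose symbol is Slc25a and a number, which gave 47 members of 48820 genes, and 40 of them, whose mean over all 9 hearts reached 0.5 FPKM, are counted below, 39 of them by name. FPKM is the number of fragments scaled to transcript length and to the mapped fragments of the library, so levels can be compared between genes. The study compared hearts of untreated wild-type C57BL/6J mice at embryonic day 18.5 (E18.5d), postnatal day 1 (P1d) and postnatal day 7 (P7d), with 3 hearts at each stage. The labels give every animal as male, and state neither litters nor whether animals were pooled, so the p-values measure the spread between these samples. Since tissue was sequenced in bulk, fewer cells of a type and less RNA per cell cannot be told apart.

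Carriers of this family sit mainly in the mitochondrial inner membrane and move metabolites, nucleotides, cofactors and ions between the cytosol and the matrix. The heart relies on them for its energy supply, because ATP made in the matrix leaves through the ADP/ATP carriers, phosphate enters through Slc25a3, and fatty acids enter as acylcarnitines through Slc25a20. Around birth the heart passes from glucose and lactate towards fatty acids as fuel. The comparisons asked which carriers differed in mRNA level between the stages.

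In 4 hearts the label male and the data were at odds. Xist, the RNA made from the inactive X chromosome, was at 82.6 and 97.0 FPKM in E18.5d replicates 1 and 3 and at 58.0 and 69.96 FPKM in P7d replicates 2 and 3, and the Y-linked Ddx3y, Kdm5d, Uty and Eif2s3y were listed at 0 in these hearts. All other hearts, which include every P1d heart, had Xist under 1 FPKM. Of the reported members, 4 are X-linked, namely Slc25a5, Slc25a14, Slc25a43 and Slc25a53. Each member's change was also computed with Xist over 1 FPKM as a covariate and without those 4 hearts, which leaves 1, 3 and 1 hearts per stage. In that last fit the spread comes from the P1d hearts alone, and the lone hearts of E18.5d and P7d are assumed to vary like them.

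The steps between low FPKM values placed the depth at 24.8 to 41.8 (in units of 1e6 fragments) per heart, as an estimate. All 7 cardiomyocyte markers were present, with summed FPKM of 31054 to 33278 at E18.5d, 35003 to 40129 at P1d and 36939 to 38741 at P7d. Every P1d and P7d heart was thus above every E18.5d heart in this sum. Markers of other cells varied as well. The summed erythroid markers ranged from 8420 to 22750 FPKM at E18.5d, from 12738 to 24733 at P1d and from 8553 to 10412 at P7d, and were highest in E18.5d replicate 3 and P1d replicate 2. Brown fat markers summed to 7.26 to 8.60 FPKM at E18.5d, 25.0 to 26.5 at P1d and 33.6 to 38.8 at P7d, most of it Cidea, while neutrophil markers peaked at P1d (41.1 to 67.3 FPKM, against 5.65 to 10.9 at E18.5d and 12.7 to 17.7 at P7d). Lung and airway markers reached 55.9 and 137 FPKM in E18.5d replicates 1 and 2 and 221 FPKM in P1d replicate 1 and did not pass 1.44 FPKM elsewhere. Most of this was Scgb3a2, at 53.2 and 127 FPKM in E18.5d replicates 1 and 2 and 179 FPKM in P1d replicate 1. Scgb1a1 reached 42.1 FPKM in P1d replicate 1, while Sftpc and Sftpb did not pass 0.63 FPKM in any heart. Liver markers reached 30.2 FPKM in P1d replicate 2. Endothelial markers summed to 232 to 263, 263 to 286 and 334 to 351 FPKM at the successive stages, fibroblast markers to 462 to 471, 370 to 515 and 617 to 633, and macrophage markers to 12.5 to 16.1, 16.9 to 23.0 and 18.3 to 20.2, and thymus and T cell markers stayed between 0.36 and 1.28 FPKM. The part of these cells in the carrier levels was not tested, except where values are given below.

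Promoter sequences are shown for the carriers with the largest rises at P7d against E18.5d that have 1 promoter entry, namely Slc25a34, Slc25a20 and Slc25a42. They were also among the 11 members called higher at P1d than at E18.5d. Since they were picked by their rise, this adds no support, and shared control was not tested. Each run, credited to RefSeq and the build GRCm38.p6, ends just upstream of the start of the gene in GENCODE, and those of Slc25a20 and Slc25a42 were shortened to 202 and 226 bases for this. Capitals mark the letters of a motif searched on both strands.

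Slc25a34, chr4:141623835-141624084, minus strand: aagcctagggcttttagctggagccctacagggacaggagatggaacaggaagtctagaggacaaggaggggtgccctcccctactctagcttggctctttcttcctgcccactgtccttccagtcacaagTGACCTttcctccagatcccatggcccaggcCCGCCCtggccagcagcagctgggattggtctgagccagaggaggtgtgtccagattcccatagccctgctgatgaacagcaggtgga

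Slc25a20, chr9:108661886-108662087, plus strand: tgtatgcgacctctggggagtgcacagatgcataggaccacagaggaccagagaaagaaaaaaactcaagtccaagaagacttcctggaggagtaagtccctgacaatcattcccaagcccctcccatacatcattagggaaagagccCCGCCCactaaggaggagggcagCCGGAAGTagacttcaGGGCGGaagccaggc

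Slc25a42, chr8:70212306-70212531, minus strand: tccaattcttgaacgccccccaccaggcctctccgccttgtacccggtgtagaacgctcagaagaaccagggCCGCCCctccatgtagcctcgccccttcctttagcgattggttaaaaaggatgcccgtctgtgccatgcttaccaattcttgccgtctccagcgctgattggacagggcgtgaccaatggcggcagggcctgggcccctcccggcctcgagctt

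The 250 bases upstream of the RefSeq start, which for Slc25a20 and Slc25a42 run past the printed letters, were searched in 40 promoters of 31 members for 8 motifs, chosen after the values were seen. The GC box (GGGCGG) was in 30 of the 40, 75% against 56.3% of the 13539 promoters of tested genes and 32.7% of all 32851 promoters. In the runs above it is the only motif of Slc25a42, and Slc25a20 has it beside the GABP site (CCGGAAGT), which was in 1 member promoter, 2.5% against 5.48% of those of tested genes. The nuclear receptor half-site (AGGTCA), in capitals as its complement in Slc25a34, was in 4 of 40, 10% against 10.7%. The cyclic AMP response element (TGACGTCA) was in those of Slc25a25 and Slc25a36, 5% against 2.42%. No member promoter held the estrogen-related receptor element (TCAAGGTCA, 0.251% of promoters of tested genes), the NRF-1 core (GCGCATGCG, 2.81%), the YY1 site (AAGATGGCG, 1.13%) or the TATA box (TATAAA, 6.59%). The estrogen-related receptor element contains the half-site, and a match of letters is a description only.

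Expression within the family was very uneven. Only 4 members exceeded 100 FPKM on average, the ADP/ATP carriers Slc25a4 (990 FPKM) and Slc25a5 (354 FPKM), the phosphate carrier Slc25a3 (700 FPKM) and the oxoglutarate carrier Slc25a11 (128 FPKM). These 4 held 79.9% to 83.0% of the summed family FPKM in each heart. A further 12 members lay between 10 and 100 FPKM, 21 between 1 and 10, and 3 between 0.5 and 1. The highest mean was 1786 times the lowest. The last member above the limit was Slc25a35 (0.554 FPKM), whose exons overlap the more abundant Rangrf on the opposite strand over 31.3% of their length, and the first under it was Slc25a18 (0.474 FPKM). Under the limit were also Slc25a2, Slc25a31, Slc25a21, Slc25a48, Slc25a41 and Slc25a54, from 0.369 FPKM down to Slc25a54, which was listed at 0 in every heart.

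On the deposited scale the family sum was highest at P1d. It was 2477 ± 50.1 FPKM for E18.5d, 3008 ± 89.1 for P1d and 2520 ± 117 for P7d (mean ± SD, n = 3 each), and the lowest P1d heart (2946) was above every heart of the other stages. Slc25a4 alone made up 60.4% of the difference of 531 FPKM between P1d and E18.5d, Slc25a3 18.3% and Slc25a20 11.1%. From E18.5d to P7d the deposited sum differed by 42.8 FPKM, where gains of 53.2 FPKM in Slc25a20, 50.7 in Slc25a4 and 45.0 in Slc25a3 stood against a loss in Slc25a5, whose mean fell by 131.9 FPKM. After rescaling the hearts by median of ratios, which sets the median ratio of genes to a common reference equal in all hearts, the sums were 2302 ± 42.4, 2952 ± 84.2 and 2715 ± 178, so that P7d then exceeded E18.5d by 413, and the highest P7d heart (2910) passed the lowest P1d heart (2888). Shares within the family do not depend on the scale. The share of Slc25a5 in the family was 16.3% ± 0.587, 12.8% ± 0.653 and 10.8% ± 0.108 at the successive stages (SD, n = 3), and that of Slc25a20 was 1.31% ± 0.0847, 3.03% ± 0.0889 and 3.40% ± 0.134.

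**Figure D1:**
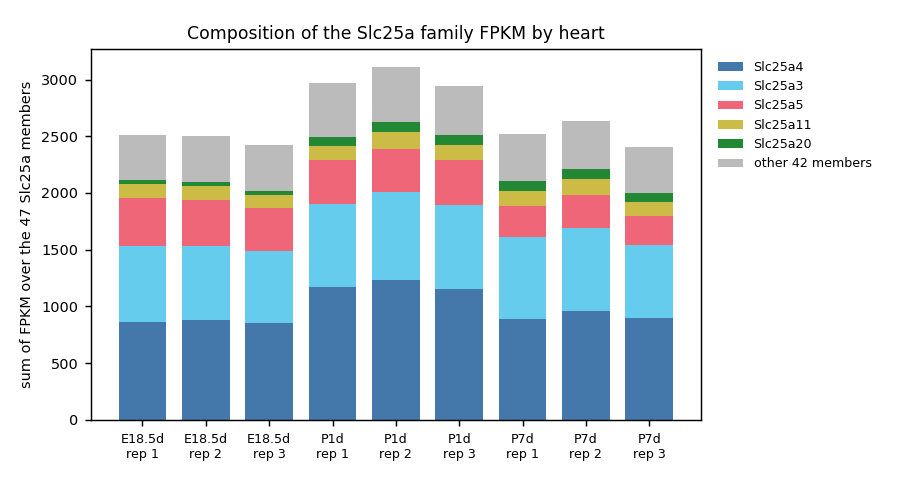
Stacked bars give the summed deposited FPKM of the 47 Slc25a members in each heart, split into 5 named carriers and the rest. The P1d bars (2946 to 3110 FPKM) are the tallest, the Slc25a5 segment is smallest in the P7d hearts, and the Slc25a20 segment is wider in every P1d and P7d heart than at E18.5d.

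Members were tested with limma on log2(FPKM + 1) among the 15565 genes whose mean reached 0.5 FPKM, with a threshold of 0.05 for the adjusted p. Fold changes on this scale understate the change of low genes. The deposited scale itself moved between stages. The median log2 change of all genes was -0.17 for P7d against E18.5d, -0.06 for P1d against E18.5d and -0.09 for P7d against P1d, and at most 0.01 in size after rescaling the hearts by median of ratios, so both scales are given. The 3 comparisons share hearts and are not independent of each other.

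At P7d against E18.5d, 7 of 40 members were higher (17.5%, against 11.5% of all genes) and 8 lower (20%, against 34.0%), with a median log2 change of -0.02. After median of ratios 14 were higher (35%, against 20.8%) and 5 lower (12.5%, against 17.3%), with a median of 0.15, so the balance of the family turned with the scale, and 7 higher and 5 lower calls were shared by both scales. At P1d against E18.5d, 11 members were higher (27.5%, against 16.7%) and 4 lower (10%, against 25.3%), and all 15 calls held after median of ratios, where 14 were higher (35%, against 21.4%) and 4 lower (10%, against 20.4%). At P7d against P1d, 2 members were higher (5%, against 13.9%) and 11 lower (27.5%, against 26.4%), while after median of ratios 5 were higher (12.5%, against 21.1%) and 8 lower (20%, against 16.8%). The lower members at P1d and P7d against E18.5d include Slc25a43, which passed the limit of 0.5 FPKM only through its E18.5d hearts. The hearts of the 2 stages did not overlap for 15 of 15, 15 of 15 and 12 of 13 called members in these comparisons. With 3 hearts against 3, a call already tends to require this, so it adds no support. The share of all called genes without overlap is not given. Of the 40 members, 17 were called in no comparison on the deposited scale, and 11 in none on either scale. The 8 lower members at P7d against E18.5d became 5 without P7d replicate 3, and the 2 higher at P7d against P1d became 1 without P1d replicate 1 or 3 or any P7d replicate. The shares of all genes with these hearts left out are not given, so these counts cannot be set against them.

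**Figure D2:**
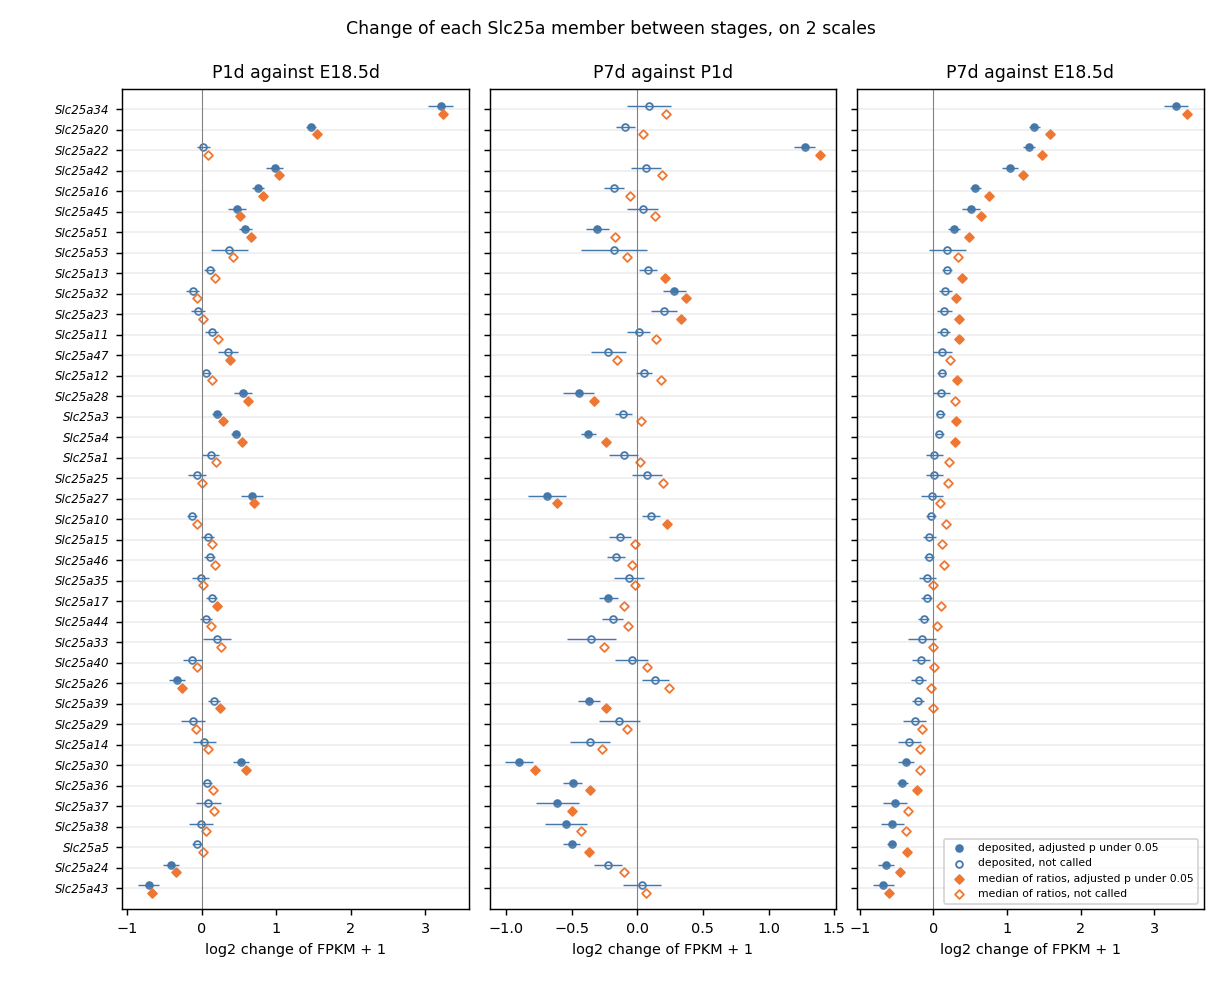
Points give the log2 change of FPKM + 1 of 39 members in the 3 comparisons, on the deposited scale (circles, with bars of 1 standard error) and after median of ratios (diamonds), filled where the adjusted p is under 0.05. The x axes differ in range. Slc25a34, Slc25a20, Slc25a22 and Slc25a42 lie furthest to the right at P7d against E18.5d, and the diamonds lie to the right of the circles.

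With Xist as a covariate the counts of higher and lower members were 7 and 8 at P7d against E18.5d, 9 and 3 at P1d against E18.5d and 1 and 7 at P7d against P1d. Of all genes, 10.8% were then higher and 32.3% lower, 10.6% and 19.1%, and 9.58% and 15.8%, in the same order. Calls lost were those of Slc25a3, Slc25a45 and Slc25a24 at P1d against E18.5d, and of Slc25a32, Slc25a51, Slc25a17, Slc25a28 and Slc25a38 at P7d against P1d. Without the 4 hearts with Xist, from the spread of the P1d hearts, only Slc25a20 stayed called at P7d against E18.5d and only Slc25a20 and Slc25a34 at P1d against E18.5d, and none at P7d against P1d. At most 1.59% of all genes were then called in either direction of any comparison, and no member called in the full data changed direction.

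**Figure D3:**
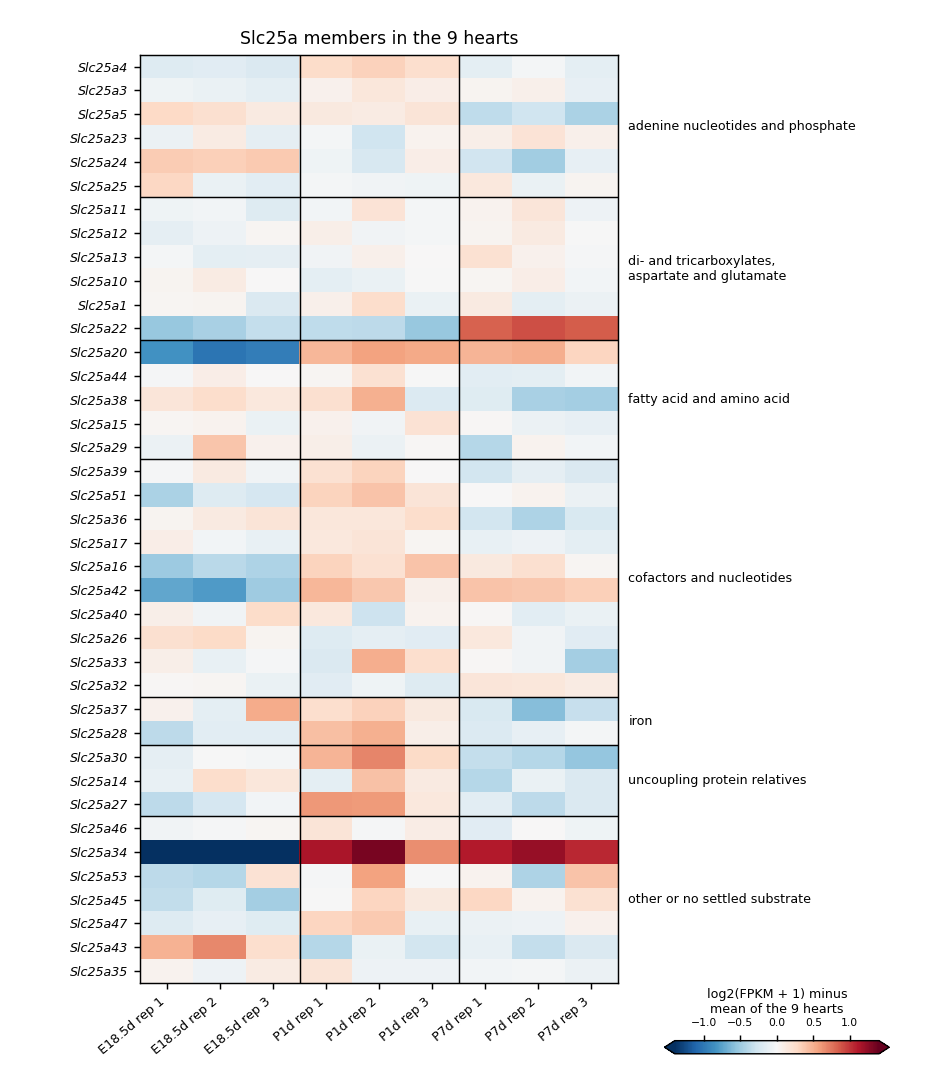
Rows are 39 of the 40 reported members, grouped by what they carry, and columns are the 9 hearts. Colour is log2(FPKM + 1) minus the mean of the 9 hearts, red above and blue below it. Slc25a34 and Slc25a20 are blue in all E18.5d hearts and red afterwards, Slc25a22 is red only in the P7d hearts, and Slc25a4, Slc25a27, Slc25a28 and Slc25a30 are reddest at P1d.

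The carriers of adenine nucleotides and phosphate include the most abundant members. Slc25a4, the ADP/ATP carrier typical of heart and muscle, was at 863, 881 and 855 FPKM in the E18.5d hearts, 1175, 1231 and 1155 in those of P1d and 894, 963 and 895 in those of P7d. Every P1d heart was above every other heart. Its log2 change was 0.45 ± 0.06 (SE) at P1d against E18.5d (adjusted p = 0.000275) and -0.37 ± 0.06 at P7d against P1d (adjusted p = 0.000957), while at P7d against E18.5d it passed the threshold only after rescaling (log2 change 0.08, adjusted p = 0.272 on the deposited scale, and 0.29, adjusted p = 0.00619 after median of ratios). The fall from P1d to P7d was absent after quantile normalization, where the log2 change was 0.0043.

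Slc25a5, the ADP/ATP carrier of proliferating and non-muscle cells, is encoded on the X chromosome (GRCm38, chrX:36795651-36798807). It was at 425, 407 and 382 FPKM at E18.5d, 383, 378 and 397 at P1d and 273, 287 and 257 at P7d. The first 2 stages overlapped and every P7d heart was lower, with a log2 change of -0.57 ± 0.06 at P7d against E18.5d (adjusted p = 0.000114) and -0.50 ± 0.06 at P7d against P1d (adjusted p = 0.000314). After median of ratios these were -0.36 (adjusted p = 0.00344) and -0.37 (adjusted p = 0.00307). Within P7d the heart with low Xist (273 FPKM) lay between the hearts with Xist. Slc25a4 exceeded Slc25a5 2.15 ± 0.105 times at E18.5d, 3.08 ± 0.171 times at P1d and 3.37 ± 0.109 times at P7d (SD, n = 3). This ratio does not depend on the scale of the columns.

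Slc25a3 brings phosphate into the matrix for ATP synthesis. It was at 671, 653 and 634 FPKM at E18.5d, 728, 779 and 743 at P1d and 716, 732 and 645 at P7d. All P1d hearts were above all E18.5d hearts (log2 change 0.20 ± 0.06, adjusted p = 0.0307), a call that was lost when any of 4 single hearts was left out, namely E18.5d replicate 2 or 3 or P1d replicate 2 or 3. The P7d hearts overlapped with both other stages, and their log2 change against E18.5d was 0.09 (adjusted p = 0.254), or 0.31 after median of ratios (adjusted p = 0.00811).

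The calcium-regulated ATP-Mg/phosphate carriers Slc25a23, Slc25a24 and Slc25a25 adjust the adenine nucleotide pool of the matrix. Slc25a24 was at 12.6, 12.4 and 12.7 FPKM at E18.5d, 9.16, 8.11 and 10.3 at P1d and 7.83, 6.59 and 8.83 at P7d. It fell without overlap, with a log2 change of -0.42 ± 0.11 at P1d (adjusted p = 0.0118) and -0.64 ± 0.11 at P7d (adjusted p = 0.00121) against E18.5d. Its relative Slc25a23 was at 15.7, 18.2 and 15.3 FPKM at E18.5d, 16.4, 13.6 and 17.3 at P1d and 17.8, 19.3 and 17.7 at P7d, with no call on the deposited scale. After median of ratios Slc25a23 was called higher at P7d, with log2 changes of 0.35 against E18.5d (adjusted p = 0.0208) and 0.33 against P1d (adjusted p = 0.027). The hearts of Slc25a25 overlapped in all stages between 6.92 and 9.70 FPKM. The ratio of Slc25a23 to Slc25a24 was 1.30 ± 0.143, 1.72 ± 0.0669 and 2.40 ± 0.478 at the successive stages, without overlap between any 2 of them.

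In all, 6 pairs of related carriers were compared by their log2 ratio, with exact permutation tests of 3 against 3 hearts, 18 in all. The smallest two-sided p this design allows is 0.1, and the lowest adjusted p was 0.257, so no ratio can be called from these tests. The ratios of Slc25a4 to Slc25a5 (exact p = 0.1 in each comparison) and of Slc25a23 to Slc25a24 (exact p = 0.1 in each) were the ones whose stages never overlapped. The ratio of the mitoferrins Slc25a28 to Slc25a37 did not overlap at P7d against E18.5d (exact p = 0.1) and did in the other 2 comparisons. For Slc25a12 to Slc25a13, Slc25a36 to Slc25a33 and Slc25a39 to Slc25a40 the stages overlapped throughout, with exact p-values from 0.2 to 0.9.

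**Figure D4:**
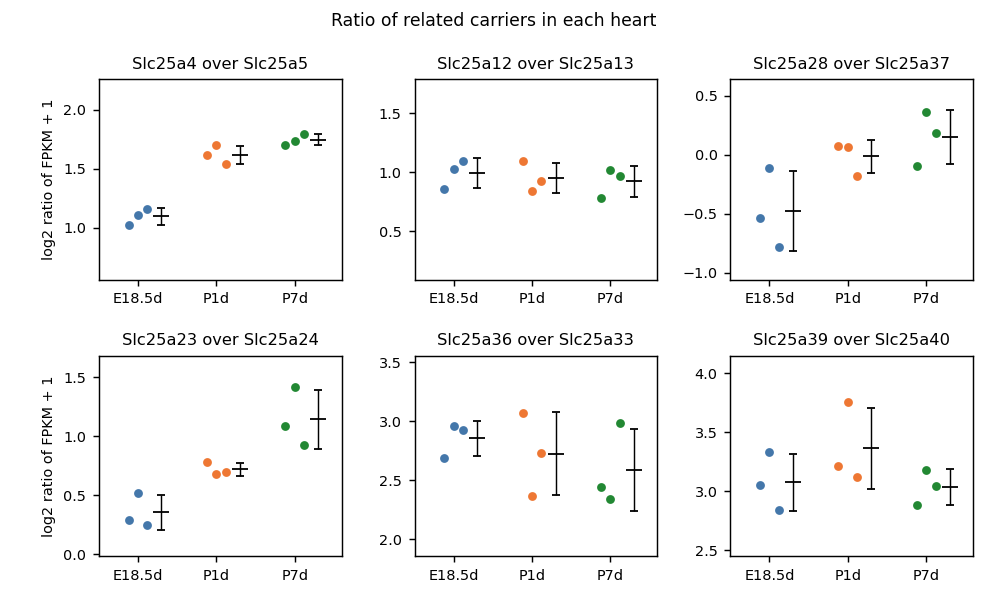
Each panel gives the log2 ratio of FPKM + 1 of 2 related carriers, with 1 point per heart and the mean ± SD of 3 hearts beside them. All panels span the same height. The log2 ratio of Slc25a4 to Slc25a5 rises from a mean of 1.10 to 1.62 and 1.75 and that of Slc25a23 to Slc25a24 from 0.35 to 0.72 and 1.15, and the points of Slc25a12 to Slc25a13 share 1 range at all stages.

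Slc25a20 exchanges acylcarnitine for carnitine across the inner membrane, the step that brings long-chain fatty acids to beta-oxidation (GRCm38, chr9:108662088-108684641). It was at 34.9, 30.6 and 32.0 FPKM at E18.5d, 87.7, 93.9 and 92.2 at P1d and 88.6, 90.3 and 78.1 at P7d. The E18.5d hearts stood far below the others, and P1d and P7d overlapped. The mean was 2.81 times as high at P1d and 2.64 times at P7d, with log2 changes of 1.46 ± 0.07 (adjusted p = 2.66e-06) and 1.37 ± 0.07 (adjusted p = 1.62e-06). Both calls held in each alternative that kept at least 2 hearts per stage. Without the hearts with Xist the log2 changes were 1.54 and 1.50, the latter between single hearts. The brown fat marker sum rose alongside, mainly through Cidea, with means of 6.71, 22.3 and 26.7 FPKM at the successive stages. Other markers of that list differed. Adipoq was at 0.267, 2.37 and 0.947 FPKM and Dio2 at 1.05, 0.58 and 1.32, and Elovl3 and Otop1 did not pass 0.11 FPKM in any heart. Ucp1, the defining gene of brown fat, was listed at 0 at E18.5d, did not pass 1.31 FPKM at P1d and lay between 5.77 and 7.26 FPKM at P7d. The part of brown fat in the rise of Slc25a20 was not tested.

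The enzymes that work with Slc25a20 were also above E18.5d at the later stages. All 4 carnitine shuttle enzymes, Cpt1a, Cpt1b, Cpt2 and Crat, were higher at P1d and at P7d than at E18.5d on both scales. Of all genes 16.7% and 11.5% were higher on the deposited scale, and 21.4% and 20.8% after median of ratios. From P1d to P7d, where Slc25a20 was not called, Cpt1a was lower (log2 change -0.53, adjusted p = 0.000214) and Crat higher (0.28, adjusted p = 0.00341), on both scales. Cpt1a, which makes acylcarnitines at the outer membrane, went from a mean of 20.0 FPKM to 74.7 and 51.4, and the muscle form Cpt1b from 138 to 280 and 278.

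Of the amino acid carriers placed with Slc25a20, the glycine carrier Slc25a38, which serves haem synthesis, was at 7.42, 7.86 and 7.31 FPKM at E18.5d, 7.75, 9.56 and 5.55 at P1d and 5.63, 4.46 and 4.38 at P7d. Its log2 change was -0.56 ± 0.16 at P7d against E18.5d (adjusted p = 0.018), and was not called after median of ratios (-0.38, adjusted p = 0.0816) or without E18.5d replicate 2, P7d replicate 2 or P7d replicate 3. At P7d against P1d its hearts overlapped and the call (-0.55 ± 0.16, adjusted p = 0.0222) was lost without P1d replicate 1 or 2 or P7d replicate 2 or 3. Slc25a44, a carrier of branched-chain amino acids, Slc25a15, the ornithine carrier, and Slc25a29, a carrier of basic amino acids, were not called in any comparison on either scale, with means per stage of 7.65 to 8.87, 5.0 to 5.58 and 0.653 to 0.973 FPKM.

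Among the carriers of di- and tricarboxylates, aspartate and glutamate, Slc25a22 stood out by its timing. This carrier takes glutamate into the matrix together with a proton (GRCm38, chr7:141429744-141437892). It was at 3.60, 3.85 and 4.26 FPKM at E18.5d, 4.18, 4.16 and 3.59 at P1d and 10.8, 11.4 and 10.9 at P7d. The first 2 stages overlapped and the P7d hearts were well above both, 2.78 times the P1d mean, with a log2 change of 1.28 ± 0.08 against P1d (adjusted p = 1.44e-05) and 1.30 ± 0.08 against E18.5d (adjusted p = 4.63e-06). The call was kept under all alternatives but the one without the hearts with Xist (1.24, adjusted p = 0.0763 against P1d).

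No carrier of the malate-aspartate shuttle, which hands cytosolic reducing equivalents to the matrix, was called on the deposited scale. Slc25a11, the oxoglutarate/malate carrier, was at 122, 124 and 113 FPKM at E18.5d, 124, 146 and 125 at P1d and 132, 143 and 121 at P7d. The aspartate/glutamate carrier Slc25a12, the form typical of heart and brain, was at 52.1, 54.4 and 58.0 FPKM at E18.5d, 60.5, 55.2 and 56.0 at P1d and 58.7, 62.6 and 56.9 at P7d. Its relative Slc25a13 was at 28.4, 26.2 and 26.5, then 27.8, 30.4 and 29.0, and then 33.8, 30.3 and 28.6 FPKM. The hearts of Slc25a11 and Slc25a12 overlapped between all stages. After median of ratios all of these carriers were higher at P7d than at E18.5d, with log2 changes of 0.35 for Slc25a11 (adjusted p = 0.0132), 0.32 for Slc25a12 (adjusted p = 0.00572) and 0.39 for Slc25a13 (adjusted p = 0.00285).

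Of the 4 shuttle enzymes, Mdh2 was called higher at P7d than at E18.5d on the deposited scale, with means of 550 and 631 FPKM, and Mdh1, Mdh2 and Got2 after median of ratios. Slc25a1, the citrate carrier that feeds fatty acid synthesis, was between 8.33 and 11.7 FPKM in all hearts and was not called. Slc25a10, the dicarboxylate carrier, was between 9.06 and 10.9 FPKM and was not called on the deposited scale. After median of ratios it was higher at P7d than at P1d (0.23, adjusted p = 0.031), and so it was on the equal-sum scale.

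Of the carriers linked to coenzyme A, Slc25a42 and Slc25a16 rose from E18.5d. The peroxisomal Slc25a17, given below, was not called against E18.5d on the deposited scale. Slc25a42 imports coenzyme A in exchange for adenine nucleotides, and was at 3.64, 3.41 and 4.42 FPKM at E18.5d, 9.56, 8.95 and 7.07 at P1d and 9.14, 8.94 and 8.63 at P7d. The E18.5d hearts lay below all others. Its log2 change was 0.98 ± 0.11 at P1d (adjusted p = 0.000182) and 1.04 ± 0.11 at P7d (adjusted p = 0.000113). Slc25a16, a carrier linked to coenzyme A uptake, was at 6.14, 6.82 and 6.53 FPKM at E18.5d, 11.7, 10.8 and 12.4 at P1d and 10.2, 10.9 and 9.37 at P7d, again without overlap between E18.5d and the later stages (log2 change 0.75 ± 0.08 at P1d, adjusted p = 0.0001).

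The NAD carrier Slc25a51 was at 35.1, 42.5 and 40.8 FPKM at E18.5d, 60.3, 63.7 and 54.6 at P1d and 48.5, 49.99 and 45.4 at P7d. It rose from E18.5d to P1d (log2 change 0.58 ± 0.08, adjusted p = 0.000629) and stayed above E18.5d at P7d (0.28 ± 0.08, adjusted p = 0.0244), a smaller change that was not called without E18.5d replicate 1, P7d replicate 1 or P7d replicate 2. Its fall from P1d to P7d was not called after median of ratios (-0.17, adjusted p = 0.133).

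Slc25a26, which imports the methyl donor S-adenosylmethionine, was at 4.61, 4.82 and 3.94 FPKM at E18.5d, 3.24, 3.41 and 3.31 at P1d and 4.35, 3.64 and 3.32 at P7d. It was lower at P1d (log2 change -0.33 ± 0.10, adjusted p = 0.0248), and this call was lost when E18.5d replicate 1, E18.5d replicate 2 or P1d replicate 1 was left out.

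The pyrimidine nucleotide carrier Slc25a36 was at 24.7, 26.4 and 27.4 FPKM at E18.5d, 26.8, 26.9 and 28.6 at P1d and 19.9, 17.5 and 20.5 at P7d. It was lower at P7d than at either earlier stage, with log2 changes of -0.42 ± 0.07 (adjusted p = 0.00142) and -0.49 ± 0.07 (adjusted p = 0.000795), also after median of ratios. Slc25a33, which carries pyrimidine nucleotides too, was at 2.99, 2.51 and 2.75, then 2.30, 4.4 and 3.45, and then 2.84, 2.65 and 1.72 FPKM, and was not called.

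Slc25a32, the folate and FAD carrier, was at 1.84, 1.86 and 1.62 FPKM at E18.5d, 1.51, 1.68 and 1.46 at P1d and 2.14, 2.12 and 2.04 at P7d. It was higher at P7d than at P1d (log2 change 0.28 ± 0.09, adjusted p = 0.0266), a call that any of 5 single hearts decided (P1d replicates 1 and 3 and each P7d replicate). After median of ratios it was also called higher at P7d than at E18.5d (0.30, adjusted p = 0.0192). The table holds the gene again under another identifier with equal values, which was counted once.

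The glutathione carrier Slc25a39 was at 60.8, 67.1 and 59.4 FPKM at E18.5d, 71.4, 76.6 and 62.0 at P1d and 51.4, 56.6 and 53.5 at P7d, lower at P7d than at P1d (log2 change -0.37 ± 0.08, adjusted p = 0.00734). The call was kept after median of ratios (-0.24, adjusted p = 0.0486) and lost in 3 of 22 alternatives, the equal-sum scale among them. After median of ratios Slc25a39 was also higher at P1d than at E18.5d (0.24, adjusted p = 0.0457). At P7d against E18.5d it was called lower only in 4 of 22 alternatives. Slc25a40, its relative, was at 6.44, 5.78 and 7.41, then 6.79, 4.75 and 6.25, and then 6.11, 5.34 and 5.59 FPKM and was not called. Slc25a17, the peroxisomal carrier of coenzyme A, FAD and related nucleotides, had means of 14.4, 15.9 and 13.5 FPKM. Its call as lower at P7d than at P1d (-0.22, adjusted p = 0.034) was lost in 13 of 22 alternatives, median of ratios among them.

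The mitoferrins bring iron into the matrix for haem and iron-sulphur clusters. Slc25a37, mitoferrin 1, is the form of erythroid cells, and was at 7.70, 6.59 and 11.01 FPKM at E18.5d, 8.87, 9.46 and 8.24 at P1d and 6.20, 4.56 and 5.70 at P7d. Its highest heart, E18.5d replicate 3, and its highest P1d heart, replicate 2, were also those with the highest erythroid marker sums of 22750 and 24733 FPKM. At P7d it was lower than at P1d (log2 change -0.61 ± 0.16, adjusted p = 0.0152), a call lost in 4 of 22 alternatives, of which the fit without P7d replicate 2 left out a single heart. Its call at P7d against E18.5d (-0.52 ± 0.16, adjusted p = 0.0263) was lost without E18.5d replicate 3, P7d replicate 2 or P7d replicate 3 and after median of ratios (-0.34, adjusted p = 0.13). The part of erythroid cells in these levels and in those of Slc25a38 was not tested.

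Slc25a28, mitoferrin 2, is the form of other tissues. It was at 5.01, 6.01 and 5.97 FPKM at E18.5d, 9.39, 9.94 and 7.17 at P1d and 5.76, 6.16 and 6.60 at P7d, with all P1d hearts above all others. The log2 change was 0.55 ± 0.12 at P1d against E18.5d (adjusted p = 0.00481) and -0.45 ± 0.12 at P7d against P1d (adjusted p = 0.0149), the latter lost without P1d replicate 1 or P7d replicate 1.

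Of the 3 relatives of the uncoupling proteins, Slc25a30 and Slc25a27 were highest at P1d. Slc25a30, also called kidney mitochondrial carrier protein 1, was at 7.42, 8.15 and 7.99 FPKM at E18.5d, 11.8, 13.7 and 10.1 at P1d and 6.28, 5.98 and 5.31 at P7d. No stages overlapped. Its log2 change was 0.53 ± 0.11 at P1d against E18.5d (adjusted p = 0.00364) and -0.90 ± 0.11 at P7d against P1d (adjusted p = 0.000258), the largest decrease of a member in that comparison. Its level below E18.5d at P7d was called on the deposited scale (-0.37, adjusted p = 0.0189) and not after median of ratios (-0.19, adjusted p = 0.193) or when E18.5d replicate 2, E18.5d replicate 3 or P7d replicate 3 was left out.

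Slc25a27, or Ucp4, was at 0.97, 1.16 and 1.47 FPKM at E18.5d, 2.89, 2.84 and 1.83 at P1d and 1.30, 0.98 and 1.22 at P7d, with log2 changes of 0.67 ± 0.15 (adjusted p = 0.00571) and -0.69 ± 0.15 (adjusted p = 0.0055) in the same comparisons. The X-linked Slc25a14, or Ucp5, lay between 1.54 and 3.43 FPKM in all hearts and was not called. In P1d replicate 3 the levels of Slc25a34, Slc25a42, Slc25a28, Slc25a30 and Slc25a27 were each the lowest of that stage, though above every E18.5d heart.

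The classic uncoupling proteins belong to the same protein family under other symbols. Ucp2 was at means of 10.8, 45.6 and 64.0 FPKM and Ucp3, the muscle form, at 0.0467, 7.24 and 22.8 FPKM at the successive stages, and both were higher at each later stage on both scales. The carrier-like outer membrane protein Mtch2 fell from 96.7 to 80.2 and 66.5 FPKM, where the step from P1d to P7d was not called after median of ratios. Of the 5 carriers outside the name pattern (Ucp1, Ucp2, Ucp3, Mtch1 and Mtch2), 3 rose and 1 fell from E18.5d to P7d on the deposited scale. From E18.5d to P1d 2 rose and 2 fell, and from P1d to P7d 4 rose and 1 fell. After median of ratios 4 rose and 1 fell, 2 and 2, and 4 and none. Of all genes 11.5% rose and 34.0% fell, 16.7% and 25.3%, and 13.9% and 26.4% on the deposited scale. After median of ratios 20.8% rose and 17.3% fell, 21.4% and 20.4%, and 21.1% and 16.8%. Ucp1, with stage means of 0, 0.453 and 6.62 FPKM, is among the genes counted as rising to P7d. It passed the limit of 0.5 FPKM only through its P7d hearts, so that its rise is partly given by the limit and is a description only.

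**Figure D5:**
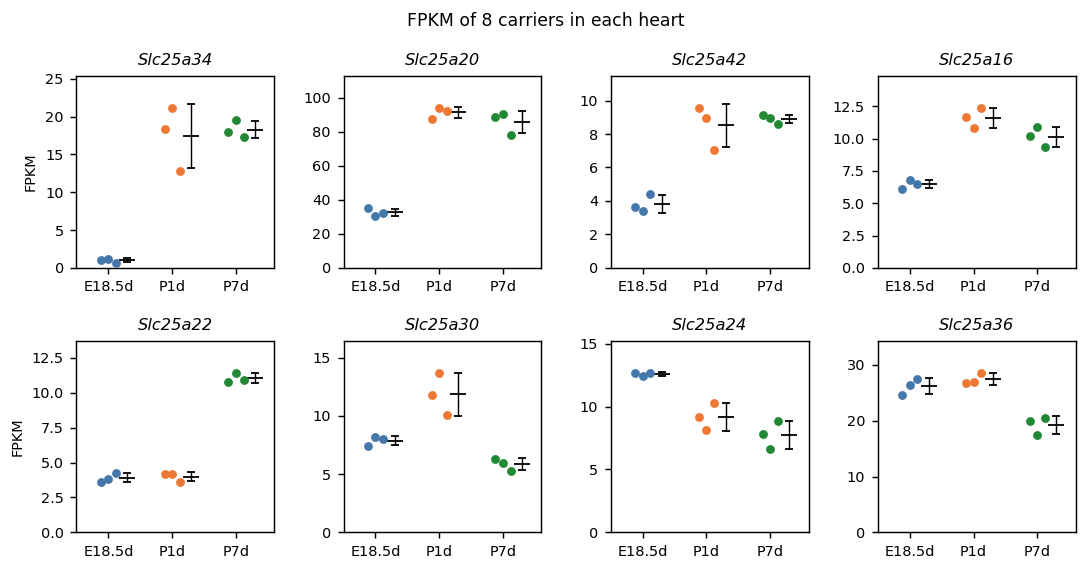
Each panel gives the FPKM of 1 carrier from 0 upwards, with 1 point per heart and the mean ± SD of the 3 hearts of a stage beside them. Slc25a34, Slc25a20, Slc25a42 and Slc25a16 are higher from P1d on, Slc25a22 rises only at P7d, Slc25a30 is highest at P1d, Slc25a24 is lower in every P1d and P7d heart than in any E18.5d heart, and Slc25a36 is lowest at P7d.

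Slc25a34 is a carrier without a settled substrate (GRCm38, chr4:141618824-141623821), and had the largest change of the family. It was at 1.03, 1.21 and 0.69 FPKM at E18.5d, 18.4, 21.2 and 12.8 at P1d and 18.0, 19.5 and 17.4 at P7d. The lowest later heart was more than 10 times the highest E18.5d heart, and P1d and P7d overlapped. The mean was 17.9 times as high at P1d and 18.7 times at P7d, with log2 changes of 3.20 ± 0.17 (adjusted p = 3.04e-06) and 3.29 ± 0.17 (adjusted p = 1.32e-06). Without the hearts with Xist the log2 changes were 3.03 at P1d and 3.10 at P7d, the latter between single hearts. The relative Slc25a35 stayed between 0.47 and 0.76 FPKM and was not called.

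Slc25a45 was at 1.53, 1.85 and 1.31 FPKM at E18.5d, 2.19, 2.96 and 2.51 at P1d and 2.92, 2.31 and 2.71 at P7d, and was higher at both later stages (log2 change 0.51 ± 0.12 at P7d, adjusted p = 0.00749). The X-linked Slc25a43 was at 1.18, 1.47 and 0.82 FPKM at E18.5d, 0.18, 0.45 and 0.30 at P1d and 0.44, 0.23 and 0.35 at P7d. It passed the limit of 0.5 FPKM only through the E18.5d hearts, so that its decrease is partly given by the limit and is a description only, with log2 changes of -0.71 at P1d and -0.68 at P7d. Its highest value was in the E18.5d heart with low Xist.

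Slc25a46, an outer membrane protein of mitochondrial dynamics, lay between 12.4 and 15.96 FPKM and the X-linked Slc25a53 between 1.8 and 4.6 FPKM, and neither was called. Slc25a47, a carrier of liver, was at 0.80, 0.89 and 0.82 FPKM at E18.5d, 1.52, 1.64 and 0.91 at P1d and 0.93, 0.95 and 1.13 at P7d, and was not called with all hearts on the deposited scale. It was called higher at P1d than at E18.5d in 4 of 22 alternatives, among them median of ratios (0.38, adjusted p = 0.0414) and the fit without P1d replicate 3, which also called it lower at P7d than at P1d. Its highest heart, P1d replicate 2, was the one with the highest liver marker sum.

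Carriers are imported by the small Tim chaperones, the Tim22 complex and the receptor Tomm70a. On the deposited scale none of these 10 genes rose and 5 fell from E18.5d to P7d, none and 4 from E18.5d to P1d, and none and 3 from P1d to P7d, against 34.0%, 25.3% and 26.4% of all genes that fell. After median of ratios 2 were higher and 3 lower, 1 and 1, and 2 and 1. Of all genes 20.8% were then higher and 17.3% lower, 21.4% and 20.4%, and 21.1% and 16.8%. Timm8b, a small chaperone of the intermembrane space, fell at each step on the deposited scale, with means of 143, 121 and 90.6 FPKM, and so did Timm8a1 with 18.3, 13.1 and 10.7. Of 10 other mitochondrial channels and carriers, the pyruvate carrier subunits, the porins Vdac1, Vdac2 and Vdac3 and the sideroflexins, none rose and 3 fell from E18.5d to P7d, 1 and 2 from E18.5d to P1d, and none and 2 from P1d to P7d, so that the share that fell was near or under that of all genes. After median of ratios 2 rose and 2 fell, 1 and 1, and 3 and 1, and the balance from P1d to P7d turned. Sfxn1, a serine carrier, was lower at P1d and P7d than at E18.5d on both scales, with means of 6.55, 4.87 and 4.48 FPKM.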

How the data were processed

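Poly-A selection and strand were not given in the sources used here. RNA of 9 hearts was extracted with Trizol and sequenced from NEBNext Ultra libraries. The authors aligned reads with STAR to GRCm38 (mm10), per the labels' processing notes, and deposited FPKM per gene, with 2 decimals and no counts. The counting tool and annotation are not given. Stages come from the labels. The members, lists and motifs were chosen with earlier results of these data known.

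The 15565 genes whose mean reached 0.5 FPKM were fitted in 1 model of all hearts on log2(FPKM + 1) with limma 3.58.1 (lmFit, contrasts, eBayes with trend, R 4.3.3) and Benjamini-Hochberg adjustment over all genes. The script was tested on simulated data. Members under the limit were not tested in the main fit. Of the 40 other members 39 are named, and 1, kept in every count, is not reported here. Values of every heart are given for carriers of the 6 pairs, for Slc25a3, Slc25a20, Slc25a11 and Slc25a42, for the largest called changes without overlap (4 each way for P7d and P1d against E18.5d, 3 for P7d against P1d), and, beyond that rule, for other called members. Pair ratios were compared by two-sided exact permutation tests (scipy 1.17.1). Alternatives were the pseudocount, filter, scale, variance model, hearts in the fit, the replicate number, Xist, a size limit and leaving out each heart. Median of ratios with Xist, with the replicate number or for the family sum was added after seeing the data.

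The depth is an estimate. It was read from the steps between low FPKM values of single-transcript genes, of which 80.7% to 87.7% were whole multiples in each heart, too few to recover reads. The search was narrowed after E18.5d replicate 2 first gave an implausible value. No 2 hearts held equal columns (r from 0.948 to 0.988 across genes). Coordinates are of GENCODE M21 on GRCm38, in which all 47 identifiers were found, 37 with the same version. The exons of 12 reported members overlap another gene, and since strand use in counting is not known, their levels, and those of close relatives, may include reads of the other gene.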

Additional observations from a re-analysis of the deposited data

How the results depend on the processing

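The counts moved with the scale and with the hearts in the fit. At P7d against E18.5d the 7 higher and 8 lower members became 14 and 5 with median of ratios or an equal sum and 13 and 5 with quantile normalization, and 14 and 5 with median of ratios together with the replicate block or the Xist covariate. All genes shifted too, from 11.5% higher and 34.0% lower to 20.8% and 17.3% with median of ratios. They were at 17.5% and 20.4% with an equal sum and 19.3% and 19.4% with quantile normalization. At P7d against P1d the 2 higher and 11 lower became 5 and 8 with median of ratios, 6 and 5 on the equal-sum scale, 4 and 8 with quantile normalization, and 3 and 3 with median of ratios and the Xist covariate. Of all genes 13.9% were higher and 26.4% lower there on the deposited scale. These shares became 21.1% and 16.8% with median of ratios, 22.8% and 14.4% with an equal sum and 19.4% and 18.5% with quantile normalization. The Xist covariate alone gave 1 and 7 members, and 9.58% and 15.8% of all genes. Without the hearts with Xist the counts were 1 and 0 at P7d against E18.5d, 2 and 0 between P1d and E18.5d, and 0 and 0 between P7d and P1d, from 1, 3 and 1 hearts with the spread of the P1d hearts alone. With no filter 1 member was higher at P7d against P1d. A log2 change of at least 0.5 left 2 lower between P1d and E18.5d, and 1 higher and 5 lower at P7d against P1d. Leaving out single hearts gave 5 to 9 lower members at P7d against E18.5d and 1 to 2 higher at P7d against P1d. The shares of all genes for no filter, the size limit, single hearts left out and the combined settings are not given. Quantile normalization reversed Slc25a4 (0.0043, adjusted p = 0.954) and Slc25a3 (0.21, adjusted p = 0.0151) at P7d against P1d, where Slc25a3 was not called before. Sign changes of members called in neither fit were not counted.

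Without the hearts with Xist, log2 ratios differed between stages by -0.25 (P7d against E18.5d) and -0.17 (P7d against P1d) for Slc25a12 to Slc25a13, for Slc25a28 to Slc25a37 by 0.024 from E18.5d to P7d, 0.10 from E18.5d to P1d and -0.078 from P1d to P7d, where it reversed, by 0.57 (P7d) and 0.20 (P1d) against E18.5d for Slc25a23 to Slc25a24, and by -0.45 (P7d against E18.5d) for Slc25a39 to Slc25a40. The causes were not tested.

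Same-numbered hearts of different stages showed no marked shared deviation, with correlations from -0.042 to 0.104. Those of differently numbered hearts ran from -0.165 to 0.114. Whether same-numbered hearts shared a litter was not tested, since the labels do not state litters. The replicate block gave 7 higher and 10 lower members at P7d against E18.5d, 11 and 4 between P1d and E18.5d, and 2 and 12 between P7d and P1d. Of all genes 11.3% were then higher and 33.3% lower, 16.5% and 24.6%, and 13.4% and 25.7%. Pseudocount 0.1 changed no call. Depth limits the members of the lowest FPKM most, since the fewest fragments per base of transcript stand behind their values.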
